A study of Mus musculus with 48 samples.

Results

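Transcripts of 38 cell cycle and proliferation genes were followed in the liver and visceral white fat of mice that differed in sex, diet and weeks on the diet. The genes were listed by symbol as textbook cell cycle genes. The rule uses no measured value, though the list was drawn up with earlier results of these data known. All 38 were found among the 30055 gene symbols of the count table, and all 38 passed the filter on low counts in each tissue. By role they comprise 7 cyclins and kinases, 7 genes of DNA replication, 4 of nucleotide supply, 18 of mitosis and 2 transcription factors.

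A dividing cell passes through G1, copies its DNA in S phase and separates the copies in mitosis. D-type and E-type cyclins lead into S phase, E2F factors switch on the replication genes, and cyclin A, cyclin B and Cdk1 drive mitosis together with genes under FoxM1 and the DREAM and B-Myb complexes. Most of these transcripts are scarce in resting cells, so in a tissue in which few cells divide their level is low. Adult hepatocytes rarely divide unless tissue is lost, and in obese fat of mice both adipocyte progenitors and macrophages are known to proliferate.

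C57BL6/J mice of both sexes from Charles River received a standard Teklad chow (RD) or a high-fat diet (HFD) with 45% of calories from fat, starting at 8 weeks of age. One cohort was taken after 2 weeks at about 10 weeks of age and the other after 12 weeks at about 20 weeks of age. Weeks on a diet, age and cohort therefore cannot be told apart. Tissue, sex, diet and weeks gave 16 groups of 3 libraries of polyadenylated RNA, none with a transgene or drug. The labels give each library a group number, here called the label number, and do not say what it stands for. The same numbers recur in liver and fat of each group, so the 2 tissues may come from the same animals. How animals were housed or drawn is not said either, so p-values measure the spread between these samples only. That spread was estimated over all groups of a fit, not from the 3 samples of each group compared.

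Levels are in CPM, the usual scaling of counts to library size, made within a tissue, and are compared within a gene and not between genes. Changes are log2 fold changes ± an approximate SE. A gene is said to have risen or fallen, or to be higher or lower, only with an adjusted p under 0.05 over all genes tested, from edgeR's quasi-likelihood test with Benjamini-Hochberg adjustment. Such genes are called. The background is the percentage of all tested genes called in the same comparison, 15897 genes in liver and 18325 in fat. It rests on edgeR's adjusted p. No such share is given for counts at an unadjusted p or for counts from DESeq2, so they cannot be set against it.

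Library totals ran from 50.9 to 80.1 M expected counts in liver and from 44.7 to 105.4 M in fat. The summed counts of the 38 genes ran from 6864 to 23464 per liver library and from 11495 to 43404 per fat library. Tissue markers matched the labels: the albumin gene Alb had at least 37871 CPM in every liver library and at most 982 in fat, and the adiponectin gene Adipoq had at least 880 CPM in fat and at most 2.62 in liver. 6 male fat libraries also carried transcripts of the epididymis, counted as the sum of 14 male tract markers. That sum was 3538 to 5471 CPM in all 3 RD males of the 12-week cohort, 10486 and 2693 CPM in RD males 6 and 8 at 2 weeks and 7838 CPM in HFD male 13 at 2 weeks. It was at most 12.3 CPM in the other male fat libraries. Epithelial markers summed to 62.1 to 332 CPM in RD males and 11.5 to 584 CPM in HFD males at 2 weeks. At 12 weeks they summed to 243 to 501 CPM in RD males and 4.54 to 31.7 CPM in HFD males. Leaving out the 3 males at 2 weeks with high male tract sums therefore still leaves epithelial transcripts among the males of that cohort. HFD female 1 at 2 weeks held 1541 CPM of epithelial markers and 10782 CPM of adipocyte markers, against at least 34953 CPM of adipocyte markers in the other 2 females of its group. It also held 3877 CPM of ovary and female tract markers, against at most 95.9 CPM in those 2. In bulk tissue, fewer dividing cells and less of a transcript per cell cannot be told apart.

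In the fat of males after 12 weeks, the high-fat diet went with a rise of most of the 38 genes. 31 rose and 1 fell, beside a background of 28.2% of all genes called, 13.2% higher and 15.0% lower. The median change of the 38 was 1.46, against -0.11 over all genes tested. 32 members were higher in each HFD male than in each RD male, a pattern that 20.2% of all genes showed. The gene with the largest rise of the 38 was Mki67, which encodes the Ki-67 protein that coats mitotic chromosomes and marks cycling cells (chromosome 7, 135689784 to 135716361, GRCm38).

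Mki67 had 12.2, 4.92 and 3.08 CPM in the 3 RD males and 45.6, 79.4 and 61.4 CPM in the 3 HFD males. The lowest HFD library thus lay above the highest RD library. The change was 3.21 ± 0.59 (edgeR adjusted p = 0.0011), or 9.24-fold between means of 6.72 ± 4.8 and 62.1 ± 16.9 CPM (SD, n = 3 each).

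**Figure D1:**
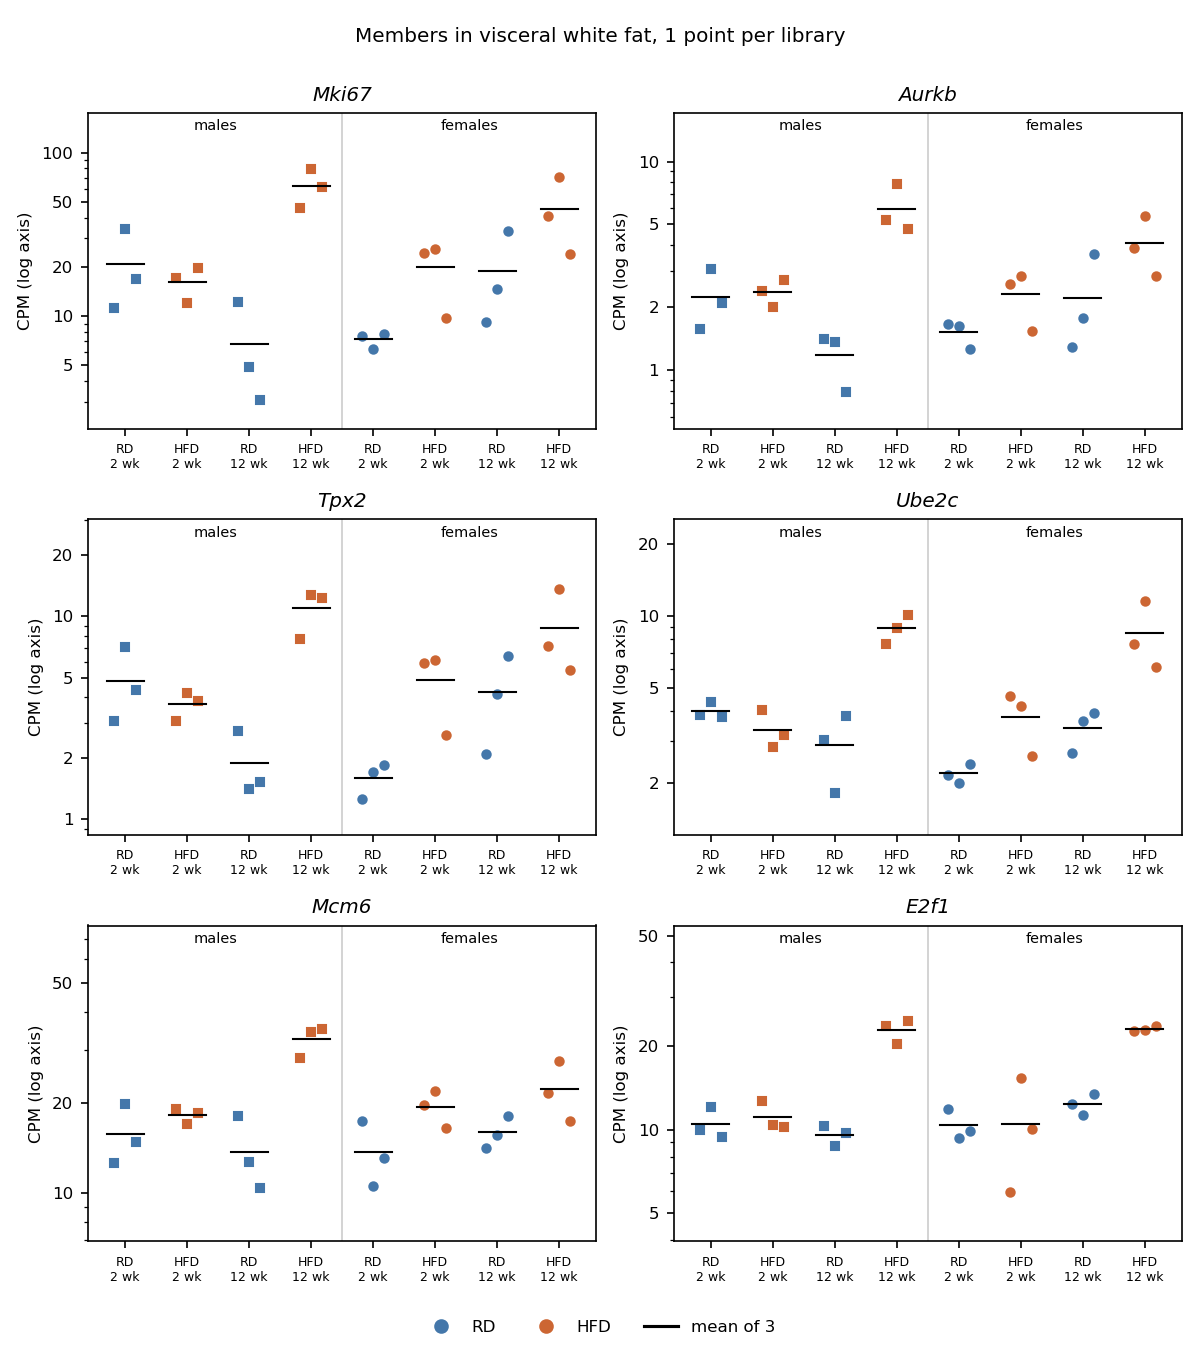
CPM (log axis) of 6 members in visceral white fat, 1 point per library, with RD in blue, HFD in orange and a bar at the mean of 3. In males at 12 weeks the 3 HFD points lie above the 3 RD points in all 6 panels; in females at 12 weeks they do so for Ube2c and E2f1 and overlap for the other 4.

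The cyclins and kinases held both the rises and the exception. Ccna2, cyclin A2 of S phase and mitosis, rose by 2.50 ± 0.46, and Cdk1, the kinase that starts mitosis, by 1.72 ± 0.34 from 2.57 ± 0.973 to 8.46 ± 1.46 CPM. The mitotic cyclins Ccnb1 (1.93 ± 0.42) and Ccnb2 (1.86 ± 0.50) and the G1/S cyclin Ccne1 (1.12 ± 0.29) rose as well. Ccne2 had 0.39 ± 0.35 and was not called.

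Ccnd1, cyclin D1, which responds to growth factors in early G1 (chromosome 7, 144929931 to 144939925), was the 1 member that fell. It is singled out here after its values were seen. RD males had 56.5, 53.3 and 171 CPM and HFD males 42.3, 39.7 and 42.8 CPM. The change of -1.17 ± 0.43 had an edgeR adjusted p of 0.0499 and rested on RD male 4, without which it was -0.40 (adjusted p = 0.499). That animal also had the highest male tract sum of its group, 5471 CPM, and the part of those transcripts in its Ccnd1 level was not tested.

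Of the 7 replication genes 5 rose, with a class median of 0.73. Mcm6, a subunit of the MCM2-7 helicase that opens the DNA, had 18.1, 12.7 and 10.4 CPM in RD males and 28.2, 34.3 and 35.2 CPM in HFD males. The groups did not overlap, and the change was 1.24 ± 0.23 (edgeR adjusted p = 0.001). Its partners Mcm3 (1.18), Mcm5 (1.12), Mcm2 (0.73) and Mcm4 (0.66) rose too. The sixth subunit, Mcm7, had 27.5 ± 4.68 CPM on RD and 28.4 ± 1.3 CPM on HFD, a change of 0.04 ± 0.15. Pcna, the sliding clamp of the DNA polymerases, had 0.43 ± 0.21 and was not called.

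Nucleotide supply was split. The thymidine kinase gene Tk1 rose by 1.41 ± 0.29 and Rrm1, the large subunit of ribonucleotide reductase, by 0.73 ± 0.19. Its small subunit Rrm2 (0.72 ± 0.49) and the thymidylate synthase gene Tyms (0.23 ± 0.24) were not called, and their RD and HFD libraries overlapped.

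Among the mitosis genes 17 of 18 rose, with a class median of 2.08. Aurkb, the Aurora kinase of the chromosomal passenger complex, had 1.42, 1.36 and 0.789 CPM on RD and 5.26, 7.77 and 4.73 CPM on HFD, a change of 2.32 ± 0.40 (edgeR adjusted p = 0.00065). Tpx2, a spindle assembly factor that activates Aurora A, had 2.72, 1.42 and 1.53 CPM on RD and 7.79, 12.8 and 12.4 CPM on HFD, a change of 2.54 ± 0.46 (adjusted p = 0.001). In both genes every HFD male exceeded every RD male.

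Ube2c, the ubiquitin-conjugating enzyme of the anaphase-promoting complex, had 3.01, 1.81 and 3.79 CPM on RD and 7.64, 8.94 and 10.1 CPM on HFD, and rose by 1.63 ± 0.29 (edgeR adjusted p = 0.00089). The spindle checkpoint kinase gene Bub1 rose by 2.50 ± 0.57 and the topoisomerase gene Top2a by 2.54 ± 0.48. The kinesin genes among the members rose too, Kif11 of the spindle by 2.00, Kif23 and Kif20a of cytokinesis by 2.17 and 2.30 and the kinetochore motor Cenpe by 2.16. The mitosis gene that was not called was Aurka, the Aurora kinase of the spindle poles, with 2.4 ± 0.0584 CPM on RD and 4.22 ± 0.595 CPM on HFD (0.81 ± 0.34, adjusted p = 0.0763).

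Both transcription factors rose. E2f1, which switches on G1/S genes, had 10.3, 8.71 and 9.73 CPM on RD and 23.6, 20.3 and 24.7 CPM on HFD, a change of 1.26 ± 0.22 (edgeR adjusted p = 0.00086). Foxm1, the factor of late cell cycle genes, went from 2.2 ± 1.68 to 10.6 ± 2.94 CPM, a change of 2.27 ± 0.50.

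Promoter sequence was available for 30 of the 38 genes, from RefSeq on GRCm38.p6, as the 250 bases before and 50 after the start. Genes of late S phase and mitosis are known to carry a CHR element (TTTGAA), which DREAM, B-Myb and FoxM1 complexes bind, and CCAAT boxes bound by NF-Y. On either strand, TTTGAA was found in 14 of the 30 windows (46.7%) and in 18.1% of 27025 promoters of that length. CCAAT was found in 24 (80%) against 37.9%, and the 14 windows with TTTGAA all held CCAAT too (46.7% against 7.12%). TTTGAA lay in 11 of 15 mitosis promoters, in 2 of 4 of the cyclins and kinases, in 1 of 6 of DNA replication and in none of the 4 of nucleotide supply. The E2F-type motifs TTTCCCGC and TTTGGCGC were found in 4 windows (13.3% against 1.63%), those of Mcm3, Mcm5, Mcm6 and Mcm7. A match is a description of sequence, not a bound site.

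Ccnd1 has no promoter entry in the source used, and for E2f1 no stretch lay outside the annotated transcript. 5 other promoters are shown, from among the members called in the most comparisons. They are written 5′ to 3′ on the strand of the gene, with the CHR letters TTTGAA in capitals, and likewise the box CCAAT or the same box on the other strand, which reads ATTGG, and they stop where either annotation places the transcript. No match overlaps another in the stretches shown. Mki67 and Cdk1, called in 5 comparisons, tied with Ccna2, Cdc20, Mcm6, Tk1 and Ube2c, so that count alone did not choose them. Of the tied genes not shown, Ccna2 has no entry. The windows of Cdc20 and Ube2c hold both TTTGAA and CCAAT, that of Mcm6 holds CCAAT without TTTGAA and that of Tk1 neither. The Mki67 stretch is chr7:135716380-135716629, minus strand, with TTTGAA 116 and 98 bases before the start.
Mki67: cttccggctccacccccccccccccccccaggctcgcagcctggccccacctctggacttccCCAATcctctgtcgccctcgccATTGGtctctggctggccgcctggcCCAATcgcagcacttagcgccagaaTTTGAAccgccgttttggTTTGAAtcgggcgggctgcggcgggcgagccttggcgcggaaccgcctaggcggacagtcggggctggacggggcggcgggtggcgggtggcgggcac
The Cdk1 stretch is chr10:69352939-69353162, minus strand.
Cdk1: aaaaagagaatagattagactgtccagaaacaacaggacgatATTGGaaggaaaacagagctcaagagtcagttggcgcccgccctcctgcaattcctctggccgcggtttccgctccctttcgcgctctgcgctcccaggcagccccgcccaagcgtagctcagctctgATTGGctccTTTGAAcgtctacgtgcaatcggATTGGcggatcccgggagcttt
The Ccnb1 stretch is chr13:100786571-100786736, minus strand, and has CCAAT without TTTGAA.
Ccnb1: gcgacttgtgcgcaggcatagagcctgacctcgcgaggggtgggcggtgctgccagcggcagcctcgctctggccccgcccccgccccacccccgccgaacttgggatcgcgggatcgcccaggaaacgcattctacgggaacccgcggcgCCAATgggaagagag
The Cenpe stretch is chr3:135212313-135212536, plus strand, and holds neither; its window has 1 CCAAT nearer the start.
Cenpe: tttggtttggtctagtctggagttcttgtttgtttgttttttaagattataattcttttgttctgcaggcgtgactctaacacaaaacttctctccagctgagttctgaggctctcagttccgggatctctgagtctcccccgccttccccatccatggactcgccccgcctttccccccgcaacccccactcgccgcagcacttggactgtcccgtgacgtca
The Ccne1 stretch is chr7:38107535-38107740, minus strand, and its window holds neither.
Ccne1: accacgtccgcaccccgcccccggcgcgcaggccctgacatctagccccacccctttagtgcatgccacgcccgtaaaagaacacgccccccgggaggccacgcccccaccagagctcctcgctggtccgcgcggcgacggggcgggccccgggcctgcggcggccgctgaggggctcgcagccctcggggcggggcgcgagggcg
All 5 genes rose in the fat of HFD males at 12 weeks, with TTTGAA or without it.

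Other genes of the cycle come from lists outside the 38, and their counts stand beside the 13.2% of all genes higher and 15.0% lower in this comparison. Of 68 further mitosis genes 41 rose and 1 fell, with a median of 1.33, and of 38 further replication genes 17 rose and none fell, with a median of 0.54. The origin licensing factor Cdt1 rose by 2.40 ± 0.31 and the condensin gene Smc2 by 1.30 ± 0.18. Of 24 inhibitors and brakes 4 rose and 2 fell, with a median of 0.18, a share near that of all genes. Among them was Cdkn1a, the p21 inhibitor of cyclin-dependent kinases, which went from 67.2 ± 5.3 to 256 ± 86.2 CPM (1.93 ± 0.38). Of 19 further G1 drivers 3 rose, with a median of 0.37, likewise near the share of all genes. They are Mybl2 by 1.26 ± 0.30, Lin9 by 0.56 ± 0.18 and Myc by 1.49 ± 0.41. Mybl2 encodes B-Myb, which acts on genes of mitosis though it is listed here with the G1 drivers. Myc had 10.7 ± 3.2 CPM on RD and 30.1 ± 23.2 CPM on HFD, a wide spread.

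Markers of other cells moved in the same males. Of 18 macrophage markers 12 rose, and their sum was 1294 to 1548 CPM on RD and 4212 to 5538 CPM on HFD. Of 10 markers of lipid-associated macrophages 7 rose; Trem2, a receptor of these cells, went from 7.26 ± 1.73 to 109 ± 39 CPM. Of 15 B and plasma cell markers 2 rose, a share near the background, while their sums were 836 to 1227 CPM on RD and 1489 to 2064 CPM on HFD. Of 13 stellate, fibroblast and progenitor markers 6 rose. Endothelial sums were 327 to 1158 CPM on RD and 1288 to 1484 CPM on HFD. Erythroid sums went the other way, 2645 to 4049 CPM on RD and 908 to 1669 CPM on HFD. Of 10 epithelial markers 9 fell. The 12 male tract markers tested had a median change of -7.02, with 2 lower, and their sum was at least 3538 CPM in every RD male and at most 7.76 CPM in every HFD male. Diet and male tract transcripts therefore cannot be told apart in these 6 libraries, and the part of the other cells in the rise of the 38 genes was not tested.

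**Figure D2:**
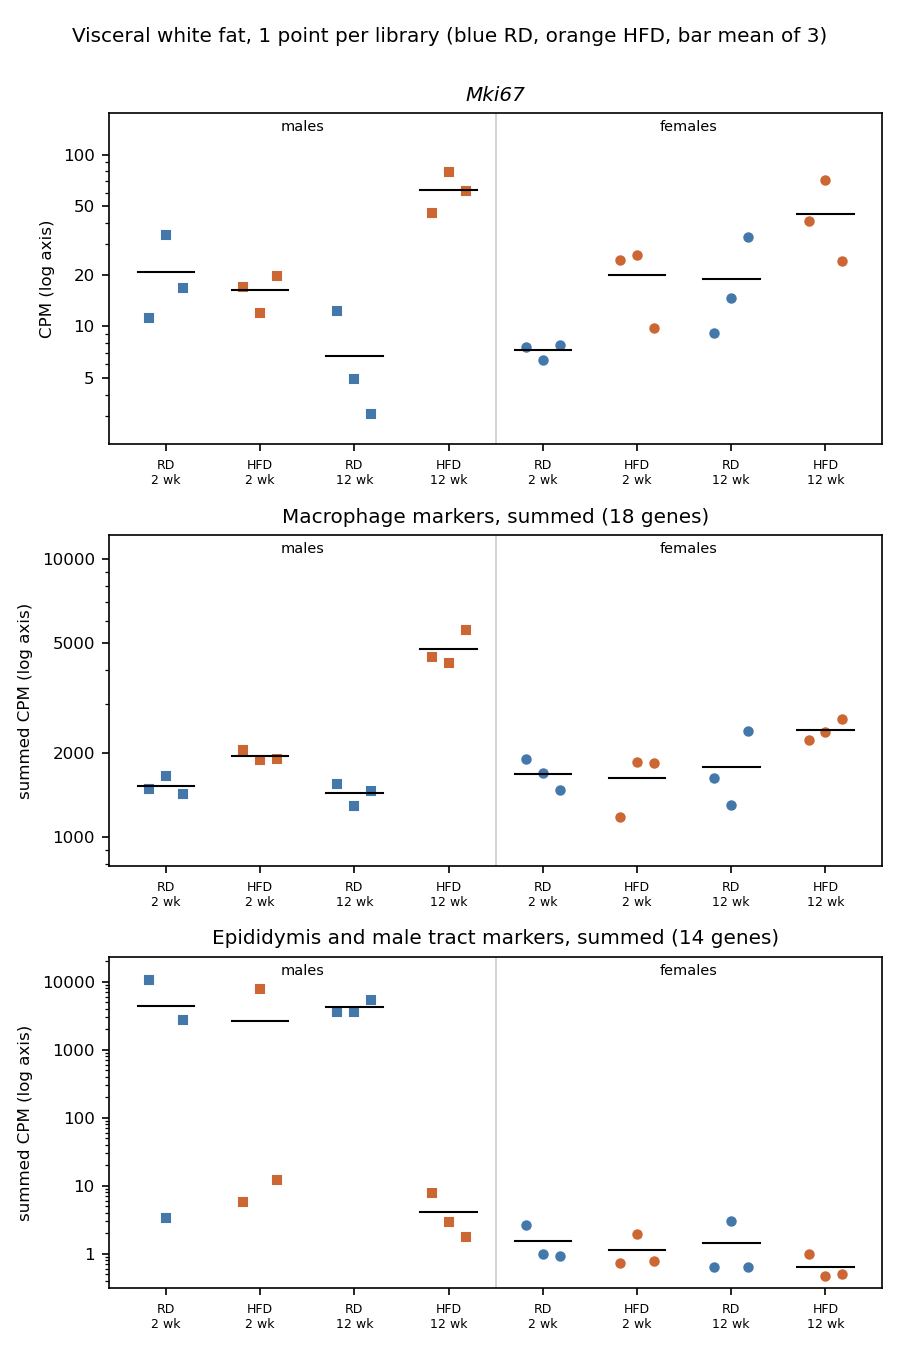
Mki67 (CPM), the sum of 18 macrophage markers and the sum of 14 male tract markers (summed CPM) in the 24 fat libraries, on log axes, with RD in blue, HFD in orange and a bar at the mean of 3. HFD males at 12 weeks have the highest macrophage sums, 4212 to 5538 CPM, while the male tract sum is at least 3538 CPM in RD males at 12 weeks and in 3 males at 2 weeks it is at least 2693 CPM.

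Leaving out 1 of the 6 libraries left 23 to 32 members called, and 21 of the 32 were called in all 6 such fits. With the label number as a block, which joins different mice on RD and HFD, 30 were called. Ccnd1 (-0.94, edgeR adjusted p = 0.0994) and the kinetochore gene Cenpf (1.56, adjusted p = 0.0695) no longer passed.

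In the fat of females after 12 weeks, 5 of the 38 rose with the diet and none fell, beside a background of 2.08%, 1.3% higher. The 5 were Ube2c, Cdk1, Ccne1, E2f1 and Cenpe, and all 5 are also among the 31 that rose in males. The median of the 38 was 0.86, against -0.02 over all genes, and 37 had a change above 0.

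E2f1 had 12.4, 11.3 and 13.4 CPM in RD females and 22.7, 22.9 and 23.7 CPM in HFD females, so the groups lay well apart, with a change of 0.90 ± 0.22 (edgeR adjusted p = 0.0402). Ccne1 had 2.18, 2.76 and 1.98 CPM on RD and 5.15, 5.78 and 5.66 CPM on HFD (1.26 ± 0.30, adjusted p = 0.0287). Both are genes of the G1/S step, and neither overlapped between diets.

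Cdk1 had 2.16, 3.43 and 4.73 CPM on RD and 7.53, 12.5 and 8.75 CPM on HFD (1.48 ± 0.34, edgeR adjusted p = 0.0272). Ube2c had 2.65, 3.62 and 3.91 CPM on RD and 7.67, 11.6 and 6.14 CPM on HFD (1.32 ± 0.29, adjusted p = 0.0211). Cenpe had 1.84, 2.88 and 5.05 CPM on RD and 8.49, 15.5 and 7.68 CPM on HFD (1.70 ± 0.44, adjusted p = 0.04997). In all 3 of these mitotic genes HFD female 6 was the highest, as it was for 17 of the 38 members over all 24 fat libraries.

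Mki67 was not called in females. RD females had 9.18, 14.6 and 33.1 CPM and HFD females 40.9, 70.9 and 24 CPM, so that RD female 8 lay above HFD female 7 (1.26 ± 0.55, edgeR adjusted p = 0.298). RD female 8 also had the highest macrophage sum of its group, 2407 CPM against 1305 and 1635 CPM, and HFD females had 2230 to 2662 CPM. Of 18 macrophage markers 1 rose. B and plasma cell sums were 379 to 611 CPM on RD and 976 to 1435 CPM on HFD, with 1 of 15 markers higher, and endothelial sums 903 to 1333 and 1597 to 1755 CPM, with none of 12 called. The part of any of these cells in the 5 rises or in the level of Mki67 was not tested. Fits without 1 library left 0 to 3 members called, and the count was 0 without HFD female 6 and without RD female 5 or 7.

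The difference between the sexes in the diet change at 12 weeks was tested directly. None of the 38 passed in edgeR or in DESeq2, 12 had an unadjusted edgeR p under 0.05, and the smallest adjusted p was 0.16, while 1.25% of all genes passed. The median difference was -0.57, smaller in females, and 34 of 38 lay below 0. For Mki67 it was -1.95 ± 0.78, for Aurkb -1.46 ± 0.54 and for Ccnd1 1.65 ± 0.61, with edgeR adjusted p = 0.189, 0.166 and 0.16.

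After 2 weeks of the diet no member was called in the fat of either sex, with 0.235% of all genes called in females and 0.0% in males. In females 15 members had an unadjusted p under 0.05 and DESeq2 called 2, with a median of 0.57 over the 38 and 34 above 0. Tpx2 had 1.26, 1.71 and 1.85 CPM in RD females and 5.87, 6.1 and 2.62 CPM in HFD females, which did not overlap (1.60 ± 0.45, edgeR adjusted p = 0.0877). HFD female 5 was the lowest of the 3 for most members, and HFD female 1 was the library with the epithelial and female tract markers. Without HFD female 5 2 members were called, and without HFD female 1 none.

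In males at 2 weeks 2 members had an unadjusted p under 0.05, DESeq2 called none and the median was -0.27. Cdk1 had 5.87, 6.41 and 4.93 CPM in RD males and 2.49, 2.68 and 2.76 CPM in HFD males (-1.12 ± 0.34, edgeR adjusted p = 0.361). Here the HFD libraries lay below the RD libraries, opposite to 12 weeks.

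**Figure D3:**
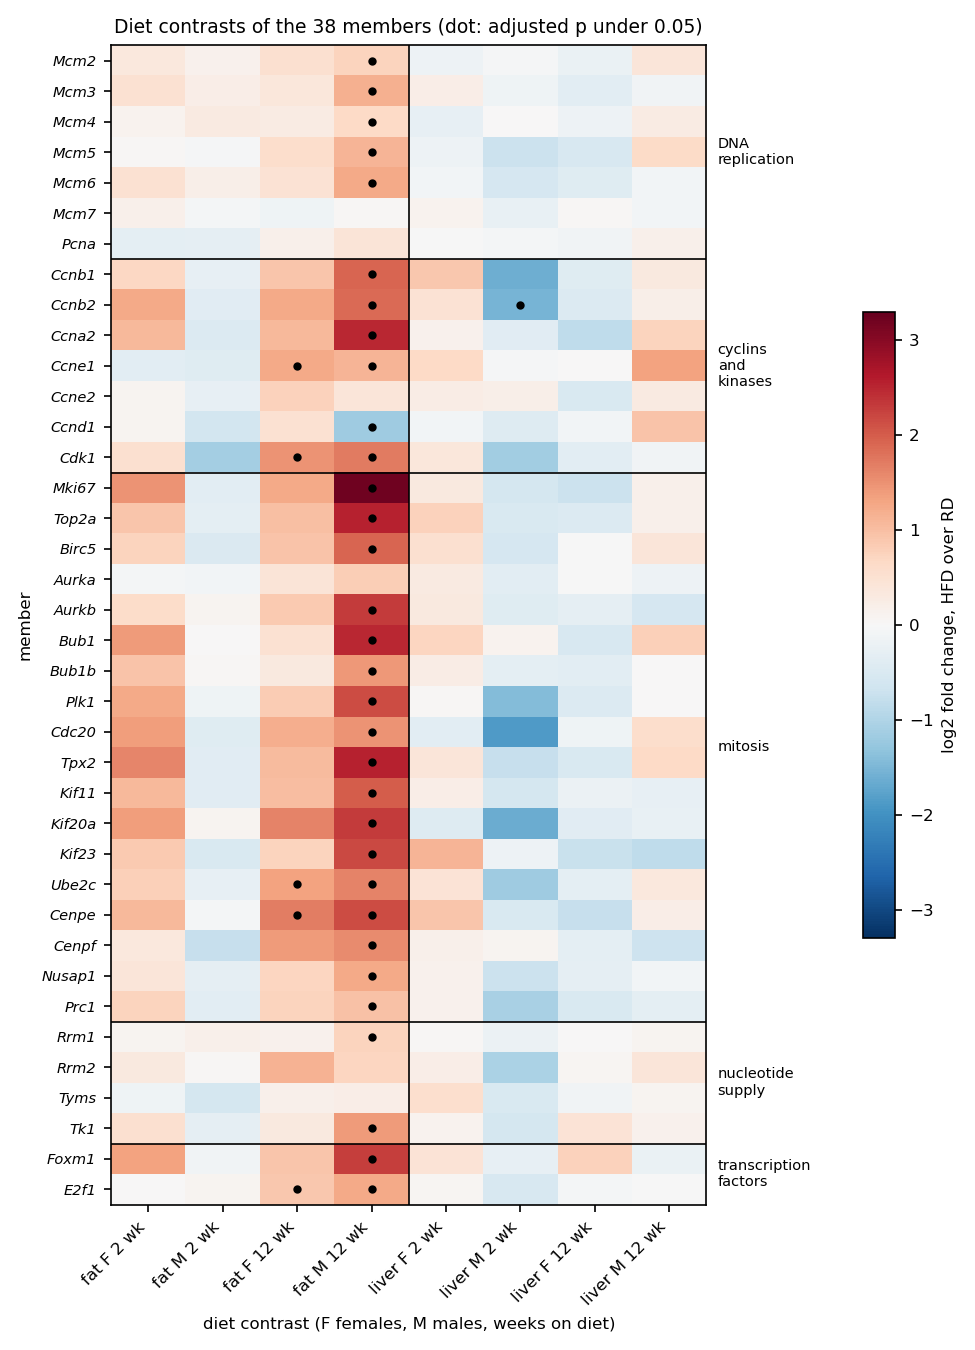
Log2 fold changes, HFD over RD, of the 38 members (in blocks by role) in 8 diet comparisons, with a dot where the adjusted p was under 0.05. The column of fat of males at 12 weeks holds 32 dots and that of females at 12 weeks 5; liver holds 1, Ccnb2 in males at 2 weeks.

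Whether the diet change differed between 12 and 2 weeks was tested within each sex. In fat of males 18 of 38 were larger at 12 weeks and none smaller, beside 5.6% of all genes called and 2.77% higher. The differences ran from 1.18 for E2f1 to 3.56 for Mki67, with 2.83 ± 0.48 for Cdk1 (edgeR adjusted p = 0.0041) and 2.94 ± 0.63 for Ccna2 (adjusted p = 0.0135). The 3 males at 2 weeks with male tract transcripts enter this test. Without them, a choice made after seeing the data that leaves 1 RD and 2 HFD males at 2 weeks, 2 members were called, Cdk1 (3.01) and Tpx2 (3.57), while the others had changes from 1.24 for Ccne1 to 4.10 for Mki67 (edgeR adjusted p = 0.0523 for Mki67). Fits without 1 library left 4 to 17. With the label number as a block for the 12-week males, added after seeing the data, 14 were called. Ccne1, Cenpe, Nusap1 and Plk1 no longer passed (edgeR adjusted p = 0.0564, 0.0505, 0.0567 and 0.0659). In females none was called, 2 had an unadjusted p under 0.05 and DESeq2 called 1, with 0.0709% of all genes called.

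Animals of the 2 cohorts can also be compared on 1 diet, a comparison that shares its HFD libraries with the diet comparisons. From 2 to 12 weeks on HFD 17 members rose in fat of males and none fell, beside 12.1% of all genes called, 5.94% higher. Mki67 went from 17, 12 and 19.6 CPM to the 45.6, 79.4 and 61.4 CPM given above, and Pcna, which was not called for diet, from 44 ± 1.06 to 82.5 ± 9.82 CPM (0.91 ± 0.21, edgeR adjusted p = 0.0112). Without the 3 males with male tract transcripts 3 were called, Cdk1, Ube2c and E2f1, and fits without 1 library left 3 to 12. Macrophage sums went from 1886 to 2057 CPM at 2 weeks to 4212 to 5538 CPM, with 8 of 18 markers higher, and B and plasma cell sums from 289 to 483 CPM to 1489 to 2064 CPM, with 6 of 15 higher. Their part was not tested. On RD none was called in males, where 13 had an unadjusted p under 0.05, the median was -0.58 and no gene of the genome was called (0.0%).

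In females on HFD, E2f1 (1.14 ± 0.22) and Ccne1 (1.22 ± 0.30) rose from 2 to 12 weeks, beside 1.51% of all genes. On RD no member was called in females, 11 had an unadjusted p under 0.05 and 0.0% of all genes were called. DESeq2 also called none on RD in either sex. E2f1 and Ccne1 were called for diet at 12 weeks and for time on HFD in fat of both sexes, but not all of these calls were firm. In males E2f1 kept both calls, and Ccne1 the call for diet, in every fit without 1 library. For time on HFD in females E2f1 lost the call in 2 of 6 such fits and Ccne1 in 4 of 6. For diet in females both lost the call in 6 of 6 fits without 1 library, with changes of 0.84 to 0.97 for E2f1 and 1.17 to 1.41 for Ccne1. Ccne1 lost it in 6 of 6 for time on HFD in males, where it was also not called without the 3 males with male tract transcripts.

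Few sex differences of these genes in fat were called. On RD at 2 weeks 36 of 38 changes lay below 0, that is, toward males, with a median of -0.76, 17 had an unadjusted p under 0.05 and DESeq2 called 8. On RD at 2 weeks Ccnd1 was lower in females (40.7, 12.5 and 23.7 CPM) than in males (102, 54.1 and 99.4 CPM), by -1.73 ± 0.44 (edgeR adjusted p = 0.0329), beside 4.28% of all genes. Cdc20, the activator of the anaphase-promoting complex, had 0.933, 0.926 and 0.893 CPM in females and 3.19, 3.21 and 2.52 CPM in males (-1.70 ± 0.45, adjusted p = 0.0398). Neither was called once the 3 males at 2 weeks with male tract transcripts were left out, where Ccnd1 stood at -1.10 and Cdc20 at -1.83.

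On RD at 12 weeks 31 of 38 changes lay above 0, with a median of 0.43, 10 had an unadjusted p under 0.05 and DESeq2 called 6. Ccnd1 was lower in females by -1.37 ± 0.43 (edgeR adjusted p = 0.0493, 10.6% of all genes called), and without RD male 4 the difference was -0.61 (adjusted p = 0.39). 8 members were called without RD male 2 and none without any 1 of the other 5 libraries. On HFD no member was called at 2 weeks, beside 3.8% of all genes called, or at 12 weeks, beside 2.85%. At an unadjusted p under 0.05 there were 3 and 2 members. DESeq2 called none and 1.

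In liver the sexes differed in 1 member throughout, Ccnd1. RD females had 148, 120 and 93.4 CPM at 2 weeks and 78.4, 104 and 128 CPM at 12 weeks. HFD females had 145, 123 and 67.6 CPM and 113, 99.7 and 76.7 CPM. The 12 male libraries ran from 13.4 to 43 CPM, so that no male reached any female.

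The female excess of Ccnd1 was 2.00 ± 0.28 on RD and 2.32 ± 0.29 on HFD at 2 weeks, and 2.79 ± 0.29 and 1.73 ± 0.28 at 12 weeks (edgeR adjusted p = 8.5e-05, 1.5e-05, 1.7e-06 and 0.00026). It remained called in every fit without 1 library. Males at 12 weeks had 14.5, 13.4 and 17.1 CPM on RD and 20.3, 23.7 and 43 CPM on HFD, a diet change of 0.95 that edgeR did not call (adjusted p = 0.117) and DESeq2 did (0.0339). The sex by diet term at 12 weeks was -1.06 (edgeR adjusted p = 0.574). In fat Ccnd1 went the other way on RD, lower in females. Those calls were lost in 4 of 6 fits without 1 library at 2 weeks and in 5 of 6 at 12 weeks. Most RD males carried male tract transcripts in fat, whose part was not tested. On HFD at 12 weeks Ccnd1 was not called in fat. Females had 46.3, 69.2 and 36.1 CPM and males 42.3, 39.7 and 42.8 CPM.

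Further members differed by sex in single liver comparisons. On RD at 2 weeks 1 was higher and 3 lower in females, beside 9.81% of all genes called, 5.37% higher and 4.45% lower. The share of members called, with both directions together, was near that of all genes. Ccnb1 had 0.383, 0.407 and 0.436 CPM in females and 1.19, 1.4 and 2.03 CPM in males (-1.91 ± 0.40, edgeR adjusted p = 0.0042). Cdc20 had 0.667, 0.785 and 0.605 CPM and 2.18, 1.29 and 2.18 CPM (-1.46 ± 0.43, adjusted p = 0.0351). Ccnb2 was lower by -1.14 ± 0.29. In fits without 1 library Cdc20 lost the call in 5 of 6, Ccnb2 in 2 of 6 and Ccnb1 in none. All 3 are mitotic genes near or below 2 CPM, and DESeq2 called 8 members here.

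On HFD at 2 weeks 5 were higher and none lower in females, beside 12.4% of all genes, 6.33% higher and 6.06% lower. The share of members called, with both directions together, was again near that of all genes. Next to Ccnd1 the members higher in females were the nucleotide genes Rrm2, Tyms and Tk1 and the midzone protein gene Prc1. Rrm2 had 5.26, 5.71 and 6.11 CPM in females and 2.79, 2.33 and 2.88 CPM in males (1.09 ± 0.24, edgeR adjusted p = 0.0041), with no overlap. Tyms (0.79 ± 0.19), Tk1 (1.33 ± 0.40) and Prc1 (0.94 ± 0.29) each lost the call in some fits without 1 library.

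On RD at 12 weeks 5 were higher and none lower in females, beside 8.81%, with 5.63% higher and 3.18% lower. The share of members called, with both directions together, was little above that of all genes. Mki67 had 4.01, 5.55 and 10 CPM in females and 2.7, 2.38 and 1.89 CPM in males (1.49 ± 0.30, edgeR adjusted p = 0.0036). Cenpe had 0.507, 0.96 and 1.36 CPM and 0.316, 0.31 and 0.328 CPM (1.57 ± 0.32, adjusted p = 0.004). Ccna2 (1.35 ± 0.34) and Mcm6 (0.88 ± 0.21) were higher as well, and RD female 8 was the highest of the females for Mki67, Cenpe and Ccna2. That library had 1272 CPM of macrophage markers against 721 and 767 CPM in the other females and 483 to 553 CPM in males, and 9 of 18 macrophage markers were higher in females. Without it 3 members were called, and its part was not tested. Ccna2 and Mcm6 each lost the call in 3 of 6 fits without 1 library.

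On HFD at 12 weeks 2 were higher and 2 lower in females, beside 17.3%, with 9.93% higher and 7.4% lower. The share of members called, with both directions together, was below that of all genes. Foxm1 had 1.56, 1.07 and 0.664 CPM in females and 0.418, 0.329 and 0.345 CPM in males (1.59 ± 0.44, edgeR adjusted p = 0.0179). Ccne1 (-1.51 ± 0.49) and E2f1 (-0.71 ± 0.24) were lower in females, and E2f1 overlapped between the sexes. In fits without 1 library Foxm1 and Ccne1 each lost the call in 3 of 6 and E2f1 in 5 of 6. In the same comparison 15 of 18 macrophage markers and 10 of 12 endothelial markers were higher in females, with macrophage sums of 780 to 868 CPM in females and 240 to 376 CPM in males. Their part in these differences was not tested.

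**Figure D4:**
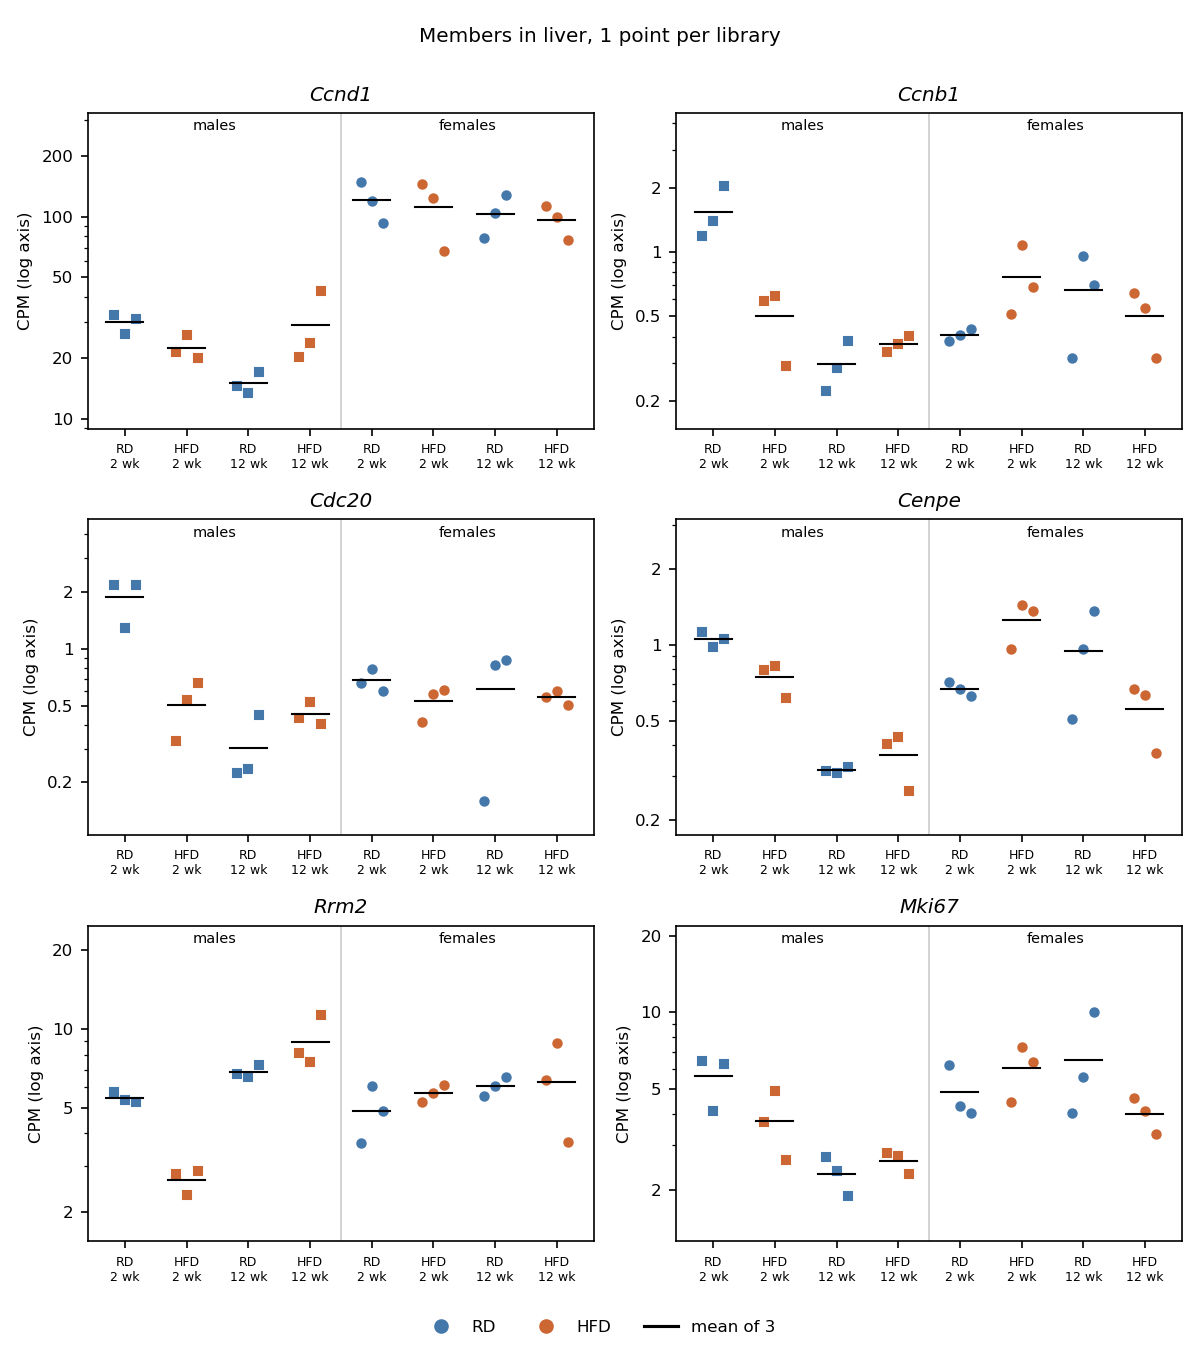
CPM (log axis) of 6 members in liver, 1 point per library, with RD in blue, HFD in orange and a bar at the mean of 3. Ccnd1 lies between 67.6 and 148 CPM in females and between 13.4 and 43 CPM in males, and RD males at 2 weeks are the highest male group for Ccnb1, Cdc20, Cenpe and Mki67.

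Outside the 38, few cell cycle genes of liver differed by sex. Over the 4 comparisons 1 to 5 of 68 mitosis genes were higher and 1 to 3 lower in females, as were 0 to 2 and 1 to 3 of 38 replication genes and 2 to 3 and 0 to 1 of 24 inhibitors and brakes, against 5.37% to 9.93% of all genes higher and 3.18% to 7.4% lower. 4 genes called in all 4 comparisons are named here, chosen after their values were seen. Mcm10, a replication initiation factor, was lower in females by -2.88, -2.14, -2.76 and -2.71 on RD and HFD at 2 weeks and RD and HFD at 12 weeks. Ccnf, an F-box cyclin that limits the cycle, was lower by -1.12, -0.92, -1.53 and -1.07. The inhibitors Cdkn1c, which encodes p57 (1.31, 1.79, 1.20 and 0.87), and Cdkn2c, which encodes p18 (0.89, 0.91, 1.12 and 1.02), were higher in females. Another brake, Btg2, was lower in females on HFD at 12 weeks by -2.47 ± 0.63, with 13.9 ± 2.26 CPM in females and 77.3 ± 67.7 CPM in males. Of the G1 drivers, Ccnd2, cyclin D2, was higher in females on HFD at 2 weeks (0.72) and on RD and HFD at 12 weeks (0.60 and 0.90). Lower in females were Tfdp1 on HFD at 2 weeks (-0.93) and Cks1b (-0.58) and Myc (-2.98) on HFD at 12 weeks. Myc had 2.37 ± 0.385 CPM in those females and 18.8 ± 21 CPM in those males.

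The diet moved few of the 38 in liver. In males at 2 weeks Ccnb2 fell, the 1 member called beside 0.34% of all genes, from 1.12, 1.24 and 1.15 CPM to 0.533, 0.397 and 0.277 CPM (-1.54 ± 0.30, edgeR adjusted p = 0.0265). 19 members were lower in each HFD male than in each RD male, a pattern shown by 8.25% of all genes, and the median was -0.51. Those not called include Ccnb1 (-1.61), Cdc20 (-1.88), Plk1 (-1.44) and Rrm2, which had 5.77, 5.38 and 5.28 CPM on RD and 2.79, 2.33 and 2.88 CPM on HFD (-1.04 ± 0.24, adjusted p = 0.0616). DESeq2 called 8 members, and Ccnb2 lost the call in 5 of 6 fits without 1 library.

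In females at 2 weeks, females at 12 weeks and males at 12 weeks no member was called for diet by edgeR, beside 0.252%, 0.00629% and 1.12% of all genes. In each of these comparisons 3 had an unadjusted p under 0.05. DESeq2 called none, none and 1. The sex by diet term at 2 weeks had 14 members with an unadjusted p under 0.05, 36 of 38 above 0 and a median of 0.72, but none was called by edgeR (0.0% of all genes) and 4 by DESeq2. Its largest were Ccnb1 (2.50 ± 0.56, edgeR adjusted p = 0.145) and Ccnb2 (2.02 ± 0.41, adjusted p = 0.117).

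RD males at 2 weeks also stood above the older RD males. From 2 to 12 weeks on RD 4 members fell in liver of males, beside 0.233% of all genes called and 0.113% lower, and 23 members were lower in each older male, against 11.3% of all genes. Cdc20 went from 2.18, 1.29 and 2.18 CPM to 0.223, 0.236 and 0.451 CPM (-2.62 ± 0.45, edgeR adjusted p = 0.0119). Ccnb1 went from 1.19, 1.4 and 2.03 CPM to 0.223, 0.286 and 0.383 CPM (-2.36 ± 0.41, adjusted p = 0.0121). The protein of Ccnb1 is destroyed through the complex that the protein of Cdc20 activates.

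Cenpe went from 1.13, 0.985 and 1.06 CPM to 0.316, 0.31 and 0.328 CPM (-1.73 ± 0.32, edgeR adjusted p = 0.0197). Mcm6 went from 7.25, 6.64 and 6.42 CPM to 3.25, 3.55 and 3.09 CPM (-1.04 ± 0.21, adjusted p = 0.0366). Macrophage sums were 692 to 759 CPM at 2 weeks and 483 to 553 CPM at 12 weeks, and endothelial sums 355 to 376 and 265 to 314 CPM. None of 18 and none of 12 of these markers was called, and their part was not tested. In all 4 genes the older males lay below the younger ones without overlap. DESeq2 called 11, all lower, and its own share of all genes is not given here. Without RD male 2 or RD male 3 of the 12-week cohort edgeR called 0. Over the 6 fits without 1 library Mcm6 lost the call in 6, Cenpe in 5 and Cdc20 and Ccnb1 in 3 each. The RD males at 2 weeks serve as the reference for this comparison, for the diet comparison in males at 2 weeks and, as males, for the sex comparison on RD, so the 3 results share these libraries.

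On HFD from 2 to 12 weeks in males Rrm2 rose, from 2.79, 2.33 and 2.88 CPM to 8.12, 7.46 and 11.3 CPM (1.75 ± 0.24, edgeR adjusted p = 6.2e-05), and Cenpe fell by 1.02, beside 17.1% of all genes called. Rrm2 kept this call in every fit without 1 library, and Cenpe lost its call in 4 of 6. The HFD males at 2 weeks also enter the sex comparison on HFD and the diet comparison in males at 2 weeks, so these Rrm2 results share libraries. Hepatocyte sums in them were 75764 to 95404 CPM. These sums were at least 97435 CPM in RD males and 127715 CPM in HFD females at 2 weeks and 114457 CPM in HFD males at 12 weeks. The part of this difference was not tested. Macrophage sums went from 700 to 1173 CPM to 240 to 376 CPM, with 15 of 18 markers lower, and endothelial sums from 345 to 412 CPM to 156 to 229 CPM, with 9 of 12 lower; their part was not tested. In females no member was called over time, with 0 on RD and 4 on HFD at an unadjusted p under 0.05, 0.0% and 0.0189% of all genes called and none called by DESeq2. The diet by weeks term called no member in either sex of liver by edgeR. Unadjusted counts were 7 in females and 12 in males, DESeq2 called 0 and 4, and 0.0% and 0.352% of all genes passed in edgeR.

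Set side by side over all 48 libraries on 1 scale, 31 of the 38 were lower in liver than in fat and 5 were higher. The test took the 48 libraries as independent, though the same label numbers recur in both tissues and may mark the same animals. The background of this comparison was 80.4% of 18800 genes, 36.6% higher and 43.8% lower, and the median of the 38 was -0.86 against -0.17. Foxm1 had the lowest ratio, with 0.989 ± 0.482 CPM in liver and 3.52 ± 2.32 CPM in fat (SD, n = 24 each, -1.72 ± 0.17, edgeR adjusted p = 1e-11). Both transcription factors, 16 of 18 mitosis genes and 6 of 7 cyclins and kinases were lower in liver.

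The 5 that were higher in liver were Tk1 (2.43 ± 0.13), Rrm2 (1.33 ± 0.14), Ccnd1 (1.17 ± 0.13), Tyms (0.89 ± 0.08) and Aurka (0.87 ± 0.09). Tk1, Rrm2 and Tyms supply nucleotides. Tk1 had 25.2 ± 10.2 CPM in liver, with a range of 7.28 to 51.8, and 4.69 ± 1.84 CPM in fat, with a range of 2.26 to 9.3. Pcna (-0.10 ± 0.06) and Kif20a (-0.65 ± 0.32) were not called. Kif20a was listed at 0 in 3 female liver libraries, while its other liver libraries had values, and an estimate that failed cannot be told apart from absence there.

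**Figure D5:**
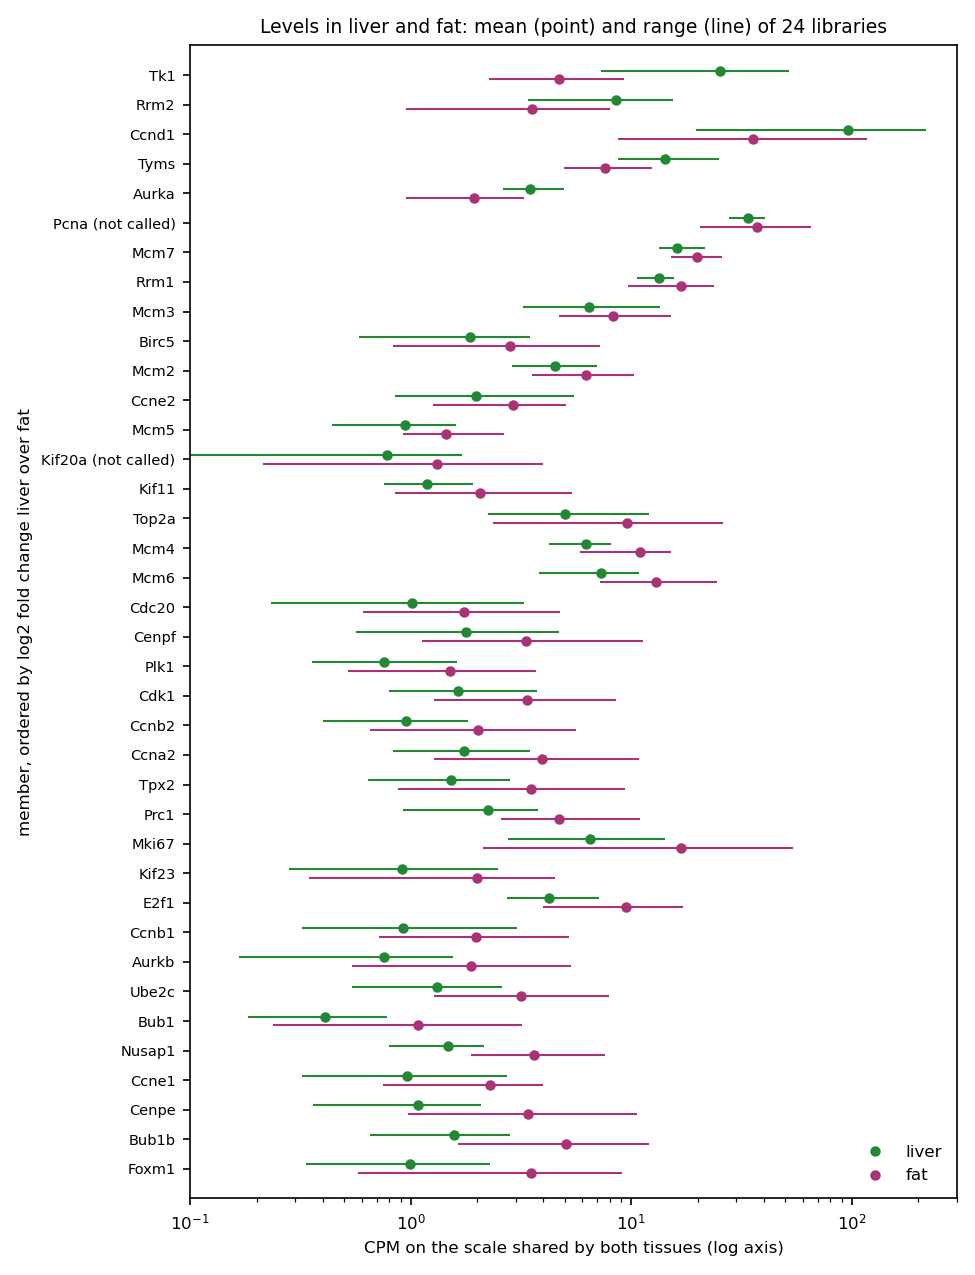
Mean (point) and lowest to highest CPM (line, log axis) of each member over the 24 liver and the 24 fat libraries, ordered by the log2 fold change liver over fat. Tk1, Rrm2, Ccnd1, Tyms and Aurka lie to the right in liver and most others to the left; the Kif20a liver line begins at 0, off the axis.

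Some members share their locus or have near copies, which limits their values. Ccna2, Ccnd1, Ccne2, Cdc20, Kif20a, Mcm7, Nusap1, Prc1, Tk1 and Ube2c overlap a protein-coding gene on the other strand and Foxm1 overlaps protein-coding models on its own, and the sources used here do not say whether counting used strand. Ccnb1, Ccnb2, Pcna and Tyms have annotated pseudogenes that could share reads.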

How the data were processed

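The 48 polyA libraries were made from 200 ng RNA each with a stranded kit, per the labels' protocols. The authors deposited a table of expected counts per gene symbol. Per the submitters' processing notes, the tools were kallisto, edgeR and DESeq2 and the build GRCm38, with neither the role nor the version of each. The sources used here do not say how estimates were combined into genes. Of all values 37% were 0. Positions come from GENCODE M21 and promoters from RefSeq, both on GRCm38.

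Expected counts were rounded and fitted per tissue (24 libraries, 8 groups, 16 contrasts) with edgeR 4.0.16 (limma 3.58.1, R 4.3.3; tables in Python 3.11.15): filterByExpr by group, TMM, glmQLFit with robust = TRUE. Liver and fat were compared in 1 fit of all 48. The SE is the absolute log2 fold change over the square root of F. Calls used a Benjamini-Hochberg adjusted p under 0.05 over all genes of a contrast. The fit was tested on simulated data.

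The members and lists were chosen with earlier results of these data known. Values per library are given for up to 6 called members per contrast by smallest p, or for 2 where none was called. Of other lists up to 4 called genes are named. Promoters are shown from among the members called in the most contrasts that have an upstream stretch, where Mki67 and Cdk1 tied with members not shown. Of 346 list entries 344 were found; Epb42 and Teddm1 were not.

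Deviations of same-numbered males at 12 weeks from their group means had weak correlations in fat (r = 0.108, 0.134 and 0.154 across genes). These 3 values are not independent of each other and do not show that the males are paired. In liver r was -0.112, 0.0505 and 0.127. The numbers were tried as a block, and the labels do not say what a number stands for. Alternatives were DESeq2 1.42.0, median-of-ratios size factors, no filter, the groups alone, robust = FALSE, the replicate block, each library left out and, added after seeing the data, 3 males left out together and the block in the interaction tests. No library was left out of the main results.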

Additional observations from a re-analysis of the deposited data

Results flagged for a closer look

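In fat of males the change with diet was larger at 12 than at 2 weeks for 18 of the 38 genes, by a direct test of the difference with edgeR. The differences in log2 fold change were 3.56 for Mki67, 2.94 for Ccna2, 2.92 for Tpx2, 2.85 for Top2a, 2.83 for Cdk1, 2.67 for Kif23, 2.41 for Birc5, 2.38 for Foxm1, 2.37 for Kif11, 2.29 for Plk1, 2.24 for Aurkb, 2.22 for Cenpe and 2.19 for Ccnb1. They were 1.89 for Ube2c, 1.70 for Tk1, 1.52 for Nusap1, 1.51 for Ccne1 and 1.18 for E2f1. The 18 comprise 11 genes of mitosis, 4 cyclins and kinases, Tk1 and both transcription factors, and no replication gene. The test without the 3 males at 2 weeks that carry male tract transcripts is given above and leaves 1 RD male in its group. With the label number as a block 14 were called. Of the 18, 4 were called in each of the 12 fits that left out 1 library.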

How the results depend on the processing

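No alternative turned the direction of a named value: of 3733 alternative values for 174 named changes, 3330 stayed on their side of the threshold, 388 lost the call and 15 gained it. Of 472 alternative counts of called members 378 stayed within 1.5 times of the value reported. With DESeq2 the counts that moved more were, in liver, 8 for sex on RD at 2 weeks, 8 for diet in males at 2 weeks and 1 at 12 weeks, 11 and 5 for weeks in RD and HFD males, 4 for sex by diet at 2 weeks and 4 for diet by weeks in males. In fat they were 8 and 6 for sex on RD at 2 and 12 weeks, 1 for sex on HFD at 12 weeks, 2 for diet in females at 2 weeks, 5 for weeks in HFD females and 1 for diet by weeks in females. Without the filter they were 3 for liver sex on HFD at 2 weeks and 1 for liver weeks in HFD males, and in fat 0 for sex on RD at 12 weeks, 3 for diet in females at 12 weeks and 1 for weeks in HFD females. From the compared groups alone they were, in liver, 10, 3 and 1 for sex on RD at 2 weeks, HFD at 2 weeks and HFD at 12 weeks, 0 for diet in males at 2 weeks and 1 for weeks in HFD males. In fat they were 0 and 1 for sex on RD and HFD at 12 weeks, 2 for diet in females at 12 weeks and 0 for weeks in HFD females. Without the 3 males at 2 weeks with male tract transcripts they were 0 for fat sex on RD at 2 weeks, 3 for weeks in HFD males and 2 for diet by weeks in males. The cause of these shifts was not tested. Leaving out 1 library gave, in liver, 2 to 4 and 2 to 5 for sex on RD and HFD at 2 weeks, 3 to 7 and 2 to 3 at 12 weeks, 0 to 1 for diet in males at 2 and at 12 weeks, and 0 to 4 and 1 to 5 for weeks in RD and HFD males. In fat it gave 0 to 1 and 0 to 8 for sex on RD at 2 and 12 weeks, 0 to 2 and 0 to 3 for diet in females, 23 to 32 for diet in males at 12 weeks, 0 to 4 and 3 to 12 for weeks in HFD females and males, and 0 to 2 and 4 to 17 for diet by weeks in females and males; liver over fat had 36 to 37. The replicate block gave 30 for fat diet in males at 12 weeks and 37 for liver over fat. It gave 0 for diet in liver and fat of females at 2 weeks and in liver of males at 12 weeks. In these same-numbered libraries did not all have a positive r. Between the tissues r was over 0.1 in 1 of 24 pairs, while 17 matched their own number best, so pairing there is not settled. In the interaction tests the replicate block, for the diet pair that shares numbers, gave 14 for fat diet by weeks in males and 0 for the other 7. No paired analysis was possible because of too few shared numbers, fewer than 2, in the sex comparisons, the comparisons of weeks, and diet in females at 12 and males at 2 weeks. Low liver levels of Cdc20, Ccnb1 and Cenpe limit their precision.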
